A study of Mus musculus with 8 samples.

Results

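The set is 9 genes of the naive pluripotency network: the transcription factor genes Esrrb, Tfcp2l1, Tbx3, Prdm14, Nr5a2 and Gbx2, the nuclear receptor genes Nr0b1 and Nr6a1, and Tcl1, which codes for a coactivator of the AKT kinases. They were taken by symbol from the deposited tables, where they are 9 of 22987 genes at 1 locus (23699 entries in all). Each was listed in all 8 libraries, and all 72 of these values had a deposited status of OK.

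Polyadenylated RNA of 2 kinds of mouse pluripotent cells was sequenced with Illumina TruSeq chemistry, with 4 libraries each. Epiblast stem cells (mEpiSC) came from 3 lines, EpiSC5 as replicate 1, EpiSC7 as replicates 2 and 3, and EpiSC9 as replicate 4. They were kept in medium with FGF2 and were passaged as small clumps with collagenase. Embryonic stem cells (mESC) came from 2 lines, ESF175/1 as replicates 3 and 4 and ESF122 as replicates 1 and 2. They were kept in medium with LIF and were passaged as single cells with trypsin. Both were grown in Knockout DMEM with Knockout Serum Replacement over feeder layers of irradiated embryonic fibroblasts, and the feeders were removed ahead of RNA extraction.

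The cell state, the growth factor, the way of passaging and the line cannot be told apart in this design. By Xist and a Y-linked gene, whose values are given with Nr0b1, the 4 mESC libraries and EpiSC5 also stood apart from EpiSC7 and EpiSC9, so the sex chromosomes are in part confounded with the state for every member. The labels give no alleles and do not say whether libraries of a line were separate cultures. The p-values therefore measure the spread between these libraries alone, which may be technical. In bulk RNA, fewer cells that express a gene and less RNA per cell cannot be told apart.

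As background, the naive state is the ground state of the inner cell mass and of mouse embryonic stem cells, and the primed state is that of the post-implantation epiblast. In mouse embryonic stem cells the naive network is fed by LIF acting through STAT3 and by relief of repression by TCF7L1. Its inner factors, among them ESRRB, TFCP2L1, TBX3 and NR5A2, bind one another's genes together with OCT4, SOX2 and NANOG. PRDM14 keeps FGF receptor genes and DNA methyltransferase genes low in these cells. NR6A1, also called GCNF, stands apart in the set: in the mouse embryo it represses the gene of OCT4 as cells leave pluripotency.

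The labelled states were checked against their markers. By limma with Benjamini-Hochberg adjustment, all 6 naive markers were lower in mEpiSC and 5 of 6 primed markers were higher (all but Pou3f1). Of 4 general pluripotency markers, 0 passed the test. Among all genes tested, 14.2% were lower and 23.1% were higher in mEpiSC. Dppa3, Tdh and Zfp42 reached the filter level of 1 FPKM in mESC libraries alone, so for these a lower level was built in. The lists were chosen with earlier results of these data known. The summed primed marker level was 142 to 361 FPKM in mEpiSC and 26.3 to 104 FPKM in mESC, with mESC 2 at the top of the mESC. The first principal component of all genes tested (63.2% of the variance) separated mEpiSC from mESC, and the second (16.9%) set both replicate 4 libraries apart from the other 6. The state and mESC line results whose call or size turned on those 2 libraries are given with and without them, while EpiSC9 has no library but mEpiSC 4. Depth was estimated from the deposited intervals at 24800000 to 38600000 fragments per library.

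Promoter sequence is shown for the members whose windows held a searched motif, and for both start sites of Nr5a2, the member that differed most between lines. Sequences were taken from RefSeq on GRCm38.p6, which held 10 windows for 7 of the 9 members. Tbx3 and Prdm14 had no entry. Each window is the 250 bases before a start site, on the gene's strand, 5′ to 3′. Both strands were searched for 8 motifs, and 5 of the 10 windows held a match, shown in capitals. They were AAGGTCA (the orphan receptor element) and TCAAGGTCA (its extended form, which contains the shorter one), TTCNNNGAA (the STAT element), TATAAA (the TATA box), ATGCAAAT (the octamer), AGGTGTGA (T-box), GGTCTCTAA (PRDM14) and GGGTGTGG (KLF).
Esrrb start 1, chr12:86360867-86361116, plus strand: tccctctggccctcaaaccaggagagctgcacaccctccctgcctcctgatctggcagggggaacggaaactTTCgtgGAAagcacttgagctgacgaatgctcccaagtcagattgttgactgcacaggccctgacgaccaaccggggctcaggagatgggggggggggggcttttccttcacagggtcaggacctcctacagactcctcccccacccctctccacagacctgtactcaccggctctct
Tfcp2l1, chr1:118627695-118627944, plus strand: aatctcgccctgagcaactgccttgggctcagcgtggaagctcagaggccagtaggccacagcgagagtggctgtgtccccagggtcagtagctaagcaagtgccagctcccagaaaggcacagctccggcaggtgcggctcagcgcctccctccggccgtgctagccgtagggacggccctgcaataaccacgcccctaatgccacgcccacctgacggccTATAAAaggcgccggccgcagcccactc
Nr0b1, chrX:86191525-86191774, plus strand: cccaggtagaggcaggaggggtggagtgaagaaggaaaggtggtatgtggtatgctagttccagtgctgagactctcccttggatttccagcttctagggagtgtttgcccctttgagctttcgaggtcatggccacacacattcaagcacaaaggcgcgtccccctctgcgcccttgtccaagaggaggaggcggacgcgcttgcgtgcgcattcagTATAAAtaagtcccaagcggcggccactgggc
Nr5a2 start 1, chr1:136953631-136953880, minus strand: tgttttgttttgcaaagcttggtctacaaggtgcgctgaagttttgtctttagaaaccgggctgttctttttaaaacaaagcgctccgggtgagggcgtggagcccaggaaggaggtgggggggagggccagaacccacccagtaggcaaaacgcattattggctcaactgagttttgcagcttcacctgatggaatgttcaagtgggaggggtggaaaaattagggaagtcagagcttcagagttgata
Nr5a2 start 2, chr1:136960449-136960698, minus strand: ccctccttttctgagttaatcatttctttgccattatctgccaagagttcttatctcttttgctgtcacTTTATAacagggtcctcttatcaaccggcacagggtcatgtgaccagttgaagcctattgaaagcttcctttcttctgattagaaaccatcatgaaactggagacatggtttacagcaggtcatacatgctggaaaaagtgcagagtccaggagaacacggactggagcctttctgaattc
Nr6a1 start 1, chr2:38784516-38784765, minus strand: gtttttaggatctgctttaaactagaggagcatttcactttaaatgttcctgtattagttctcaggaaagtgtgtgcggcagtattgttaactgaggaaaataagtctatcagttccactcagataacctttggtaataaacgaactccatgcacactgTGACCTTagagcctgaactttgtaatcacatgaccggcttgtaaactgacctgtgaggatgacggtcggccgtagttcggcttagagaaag
The capitals in the Esrrb window mark the fixed letters of TTCNNNGAA, which begins 178 bases before the start site and was found in 7.02% of all 32851 promoter windows of the table. TATAAA began 28 bases before the start site of Tfcp2l1 and 32 bases before that of Nr0b1. It was found in 12.4% of all windows. In the second Nr5a2 window the capitals mark TATAAA on the other strand, 181 bases before the start site, and the first Nr5a2 window held no match. In the Nr6a1 window they mark AAGGTCA on the other strand, 91 bases before the start site, a motif found in 4.08% of all windows. The remaining 5 motifs had no match in the 10 windows. Their shares of all windows were 0.387% for TCAAGGTCA, 1.60% for ATGCAAAT, 1.12% for AGGTGTGA, 0.240% for GGTCTCTAA and 3.20% for GGGTGTGG. A match describes the letters of the window, and the lack of one says only that these letters are not in it.

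Of the 9 members, 6 were lower in mEpiSC, 1 (Nr6a1) was higher and 2 (Nr5a2 and Gbx2) did not pass the test. Among all 11556 genes tested, 14.2% were lower, 23.1% were higher and 37.3% were called in either direction, by limma on log2(FPKM + 1) with p-values adjusted by Benjamini-Hochberg and a threshold of 0.05. Of all calls 38.1% were lower in mEpiSC with FPKM as deposited. Rescaled by median ratios the share was 52.3%, and with quantiles made equal it was 50.3%. The median log2 difference, mEpiSC minus mESC, was −2.02 over the 9 members and 0.08 over all genes tested. FPKM counts fragments relative to transcript length and library size, and the added 1 makes the log2 difference of a low gene smaller than the change in its FPKM. The filter asked for at least 1 FPKM in at least 4 libraries, and 3 members (Tbx3, Prdm14 and Tcl1) met it through the mESC libraries alone, so for these a difference was built in. In 6 members, the same 6 that were lower, the 4 mEpiSC and 4 mESC values did not overlap, as in 14.9% of all genes tested with mEpiSC lower and 37.1% in either direction.

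**Figure D1:**
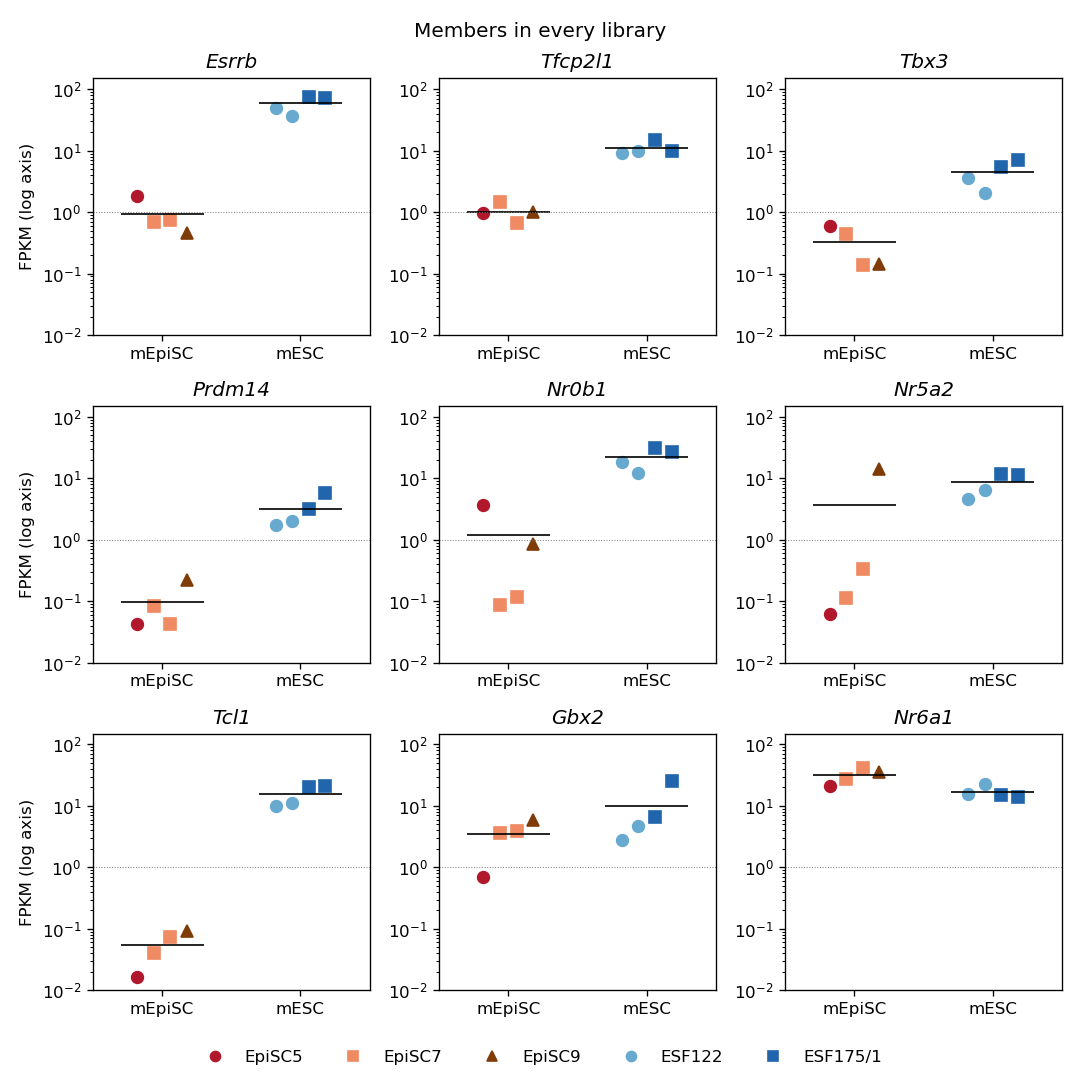
FPKM of the 9 members in each library on a log axis, with the 4 mEpiSC libraries left of the 4 mESC libraries; horizontal bars are the means of 4 libraries and the dotted line is 1 FPKM. The states are apart for 6 members, while 1 mEpiSC library of Nr5a2, at 14.3 FPKM, lies above all 4 mESC libraries and the Gbx2 and Nr6a1 values overlap.

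Esrrb codes for an orphan nuclear receptor that binds DNA with OCT4 and can take the place of NANOG in sustaining mouse embryonic stem cells. The gene lies at chr12:87702066-87862578 (mm9, as are all gene positions here). Its level was 1.83, 0.686, 0.736 and 0.451 FPKM in mEpiSC 1 to 4, against 49.6, 36.5, 76.1 and 72.7 FPKM in mESC 1 to 4. All mEpiSC libraries were far below all mESC libraries, and the EpiSC5 library was the highest of the mEpiSC. The means were 0.927 ± 0.617 FPKM in mEpiSC and 58.7 ± 18.9 FPKM in mESC (SD, n = 4 each). The log2 difference was −4.94 (SE 0.28, limma adjusted p = 7.6e-06), and the mEpiSC mean was 1.58% of the mESC mean. Esrrb had the highest level of the 9 members in mESC, and its range there did not overlap that of the next, Nr0b1. In mEpiSC it stood sixth in order of mean level.

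Tfcp2l1 (chr1:120524521-120581745) codes for a transcription factor of the Grainyhead and CP2 family that acts downstream of LIF and STAT3 in mouse embryonic stem cells. Its level was 0.959, 1.45, 0.675 and 0.990 FPKM in mEpiSC 1 to 4, against 9.17, 9.95, 15.1 and 9.73 FPKM in mESC 1 to 4. The highest and lowest mEpiSC values, 2.15 times apart, were both of EpiSC7, with EpiSC5 and EpiSC9 between them. In mESC the highest was 1.65 times the lowest, and mESC 3 stood above the other mESC libraries. The means were 1.02 ± 0.321 FPKM in mEpiSC and 10.99 ± 2.77 FPKM in mESC, and the log2 difference was −2.56 (SE 0.19, limma adjusted p = 4.0e-05). The remaining level was 9.27% of the mESC mean, the largest share among the 6 members that were lower.

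Tbx3 (chr5:120120677-120134610) codes for a T-box transcription factor that helps to keep self-renewal in mouse embryonic stem cells and also acts as they turn to extraembryonic endoderm. Its level was 0.607, 0.442, 0.137 and 0.144 FPKM in mEpiSC 1 to 4, against 3.53, 2.07, 5.42 and 7.12 FPKM in mESC 1 to 4. The groups did not overlap, and the spread within each was wide, with mESC 2 lowest among the mESC. The means were 0.332 ± 0.232 FPKM in mEpiSC and 4.54 ± 2.20 FPKM in mESC, with a log2 difference of −1.98 (SE 0.29, limma adjusted p = 0.0012).

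Prdm14 (chr1:13103508-13117244) codes for a PR-domain protein that is needed for primordial germ cells and for the low DNA methylation of naive cells. Its level was 0.0433, 0.0830, 0.0431 and 0.220 FPKM in mEpiSC 1 to 4, against 1.72, 2.03, 3.19 and 5.80 FPKM in mESC 1 to 4. It was the lowest member in mESC, and the groups did not overlap. The means were 0.0974 ± 0.0840 FPKM in mEpiSC and 3.19 ± 1.86 FPKM in mESC, with a log2 difference of −1.84 (SE 0.27, limma adjusted p = 0.0012). The deposited 95% interval of mEpiSC 3 reached 0, so the gene was near the limit of detection there.

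Tcl1 (chr12:106454964-106460947) was the member with the smallest remaining level. It was listed at 0.0163, 0.0411, 0.0725 and 0.0912 FPKM in mEpiSC 1 to 4, against 10.0, 11.0, 20.5 and 21.0 FPKM in mESC 1 to 4. The mEpiSC values were at the limit of detection, since the deposited interval reached 0 in 3 of the 4. The means were 0.0553 ± 0.0332 FPKM in mEpiSC and 15.6 ± 5.92 FPKM in mESC, and the log2 difference was −3.91 (SE 0.25, limma adjusted p = 1.4e-05). The mEpiSC mean was 0.354% of the mESC mean.

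Nr0b1 (chrX:83437113-83441283) codes for DAX1, a nuclear receptor without a DNA-binding domain of the usual kind that binds and restrains OCT4 and NR5A2. Its level was 3.70, 0.0857, 0.119 and 0.850 FPKM in mEpiSC 1 to 4, against 18.5, 11.97, 31.4 and 26.8 FPKM in mESC 1 to 4. The states did not overlap, yet the mEpiSC libraries ranged widely, with EpiSC5 highest, EpiSC9 next and both EpiSC7 libraries near 0. The means were 1.19 ± 1.71 FPKM in mEpiSC and 22.2 ± 8.63 FPKM in mESC, with a log2 difference of −3.60 (SE 0.48, limma adjusted p = 8.0e-04).

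Nr6a1 (chr2:38578893-38781981) was the 1 member that was higher in mEpiSC. Its level was 20.9, 27.2, 41.2 and 36.3 FPKM in mEpiSC 1 to 4, against 15.4, 22.8, 15.2 and 13.9 FPKM in mESC 1 to 4. The ranges overlapped through EpiSC5, the lowest mEpiSC library, and mESC 2, the highest mESC library. The means were 31.4 ± 9.10 FPKM in mEpiSC and 16.8 ± 4.02 FPKM in mESC, with a log2 difference of 0.84 (SE 0.23, limma adjusted p = 0.019). The call was lost with a random block for the line (log2 0.82, adjusted p = 0.074) and with replicates 1 to 3 only (log2 0.68, adjusted p = 0.073). It was also lost without mESC 1 (adjusted p = 0.0501), mESC 3 (0.054) or mEpiSC 3 (0.053). Nr6a1 was the most abundant member in mEpiSC, where its range did not overlap that of any other. Pou5f1, the gene of OCT4 that NR6A1 represses in the mouse embryo, had a log2 difference of −0.21 (limma adjusted p = 0.44).

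Nr5a2 (chr1:138740160-138857025) codes for LRH-1, an orphan nuclear receptor that binds the Pou5f1 gene in the epiblast and can replace OCT4 in reprogramming mouse fibroblasts. Its level was 0.0625, 0.114, 0.331 and 14.3 FPKM in mEpiSC 1 to 4, against 4.52, 6.40, 11.9 and 11.4 FPKM in mESC 1 to 4. The library of EpiSC9 was above all 4 mESC libraries, and the other 3 mEpiSC libraries were far below all of them. The EpiSC9 value was 43.1 times the next highest mEpiSC value and 167% of the mESC mean, while EpiSC5 stood at 0.731% and the EpiSC7 libraries at 1.33% and 3.88% of it. The means, 3.70 ± 7.05 FPKM in mEpiSC and 8.55 ± 3.65 FPKM in mESC, thus join unlike lines.

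The state difference of Nr5a2 was −2.02 on the log2 scale (SE 0.80) and did not pass the test (limma adjusted p = 0.077). It passed with the replicate number as a block (adjusted p = 0.033) and with 1 mean per line (log2 −1.73, adjusted p = 2.4e-04). The latter fit takes its spread from libraries of the same line. Its p-value thus leaves out the spread between lines, which is wide for Nr5a2, and is not a test with lines as units. Without mEpiSC 4 it was −2.95 (adjusted p = 4.0e-04), and with replicates 1 to 3 only it was −2.80 (adjusted p = 0.0012). From the deposited interval, the EpiSC9 value rests on about 2928 fragments, against about 13.1 in EpiSC5.

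Gbx2 (chr1:91824536-91827751) codes for a homeodomain factor that acts downstream of LIF and STAT3 and also patterns the hindbrain border. Its level was 0.704, 3.62, 3.84 and 5.84 FPKM in mEpiSC 1 to 4, against 2.76, 4.72, 6.69 and 25.1 FPKM in mESC 1 to 4. The groups overlapped, with EpiSC5 lowest of all libraries and mESC 4 far above the rest. The means were 3.50 ± 2.11 FPKM in mEpiSC and 9.81 ± 10.3 FPKM in mESC. The log2 difference was −1.01 (SE 0.61, 95% interval −2.39 to 0.37) and did not pass the test (limma adjusted p = 0.22). It passed with the replicate number as a block (adjusted p = 0.027), and without mESC 4 it was −0.45 (adjusted p = 0.49). With replicates 1 to 3 only it was −0.71 (adjusted p = 0.24). In GENCODE vM21, 43.5% of the exonic bases of Gbx2 overlap D130058E05Rik on the opposite strand. Since the use of strand in counting is not given in the sources used here, the level of Gbx2 is uncertain.

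In order of mean FPKM, mEpiSC had Nr6a1 first, followed by Nr5a2, Gbx2, Nr0b1, Tfcp2l1, Esrrb, Tbx3, Prdm14 and Tcl1. Beyond Nr6a1, the ranges of neighbours in that order overlapped. In mESC the order was Esrrb, Nr0b1, Nr6a1, Tcl1, Tfcp2l1, Gbx2, Nr5a2, Tbx3 and Prdm14, and beyond Esrrb the ranges of neighbours overlapped. The summed level of the 9 members was 28.8 to 59.1 FPKM in mEpiSC and 107 to 193 FPKM in mESC. Esrrb and Nr6a1 thus led one state each, and Tcl1 took the last place in mEpiSC and the fourth in mESC.

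Which mEpiSC lines kept a member was asked with 1 mean per line and an F test over EpiSC5, EpiSC7 and EpiSC9. EpiSC5 and EpiSC9 have 1 library each, which the fit assumes to vary like the other lines. Of the 9 members, 2 passed (limma, Benjamini-Hochberg adjusted p under 0.05), against 2.6% of all genes tested, and 3 had an unadjusted p under 0.05, against 24.7% of all genes. The 2 were Nr5a2 (F = 122.6, adjusted p = 0.0043) and Nr0b1 (F = 28.8, adjusted p = 0.033). Nr5a2 was kept in EpiSC9, whose 1 library carries the call: without it EpiSC9 is not in the test, and EpiSC5 and EpiSC7 gave an adjusted p of 0.91. Nr0b1 was at 16.7% of the mESC mean in EpiSC5, at 3.83% in EpiSC9 and at 0.387% and 0.538% in the EpiSC7 libraries.

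The Nr0b1 call is a narrow one. It was lost with a pseudocount of 5 (adjusted p = 0.12), with no filter (0.055) and without mESC 1 (0.051), mESC 2 (0.0502), mEpiSC 2 (0.11) or mEpiSC 3 (0.11). Without mEpiSC 1 there is no EpiSC5 in the test, and EpiSC7 and EpiSC9 gave an adjusted p of 0.16. Nr0b1 lies on the X chromosome, and Xist, the RNA that coats an inactive X, was looked up after its values were seen. Xist was at 1.75, 36.1, 41.0 and 41.0 FPKM in mEpiSC 1 to 4, against 1.66, 0.488, 1.10 and 0.143 FPKM in mESC 1 to 4. The Y-linked Ddx3y was at 30.4, 0.414, 0.191 and 0.113 FPKM in mEpiSC 1 to 4, against 21.9, 20.0, 14.8 and 12.7 FPKM in mESC 1 to 4. EpiSC5 alone among the mEpiSC lines had low Xist and a high Y-linked level, as all mESC libraries did. The part of the sex chromosomes in the Nr0b1 result was not tested.

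The other 7 members did not pass the F test. Among them Esrrb had the highest F (7.86, adjusted p = 0.13) and Tfcp2l1 an adjusted p of 0.998. Gbx2 (F = 3.74, adjusted p = 0.26) passed when mESC 3 or mESC 4 was left out (adjusted p = 0.018 each). By value, EpiSC5 was highest of the mEpiSC libraries for Esrrb, Tbx3 and Nr0b1 and lowest for Gbx2, Nr5a2, Nr6a1 and Tcl1. EpiSC9 was highest for Gbx2, Nr5a2, Prdm14 and Tcl1 and lowest for Esrrb. No mEpiSC line was thus highest for the whole set.

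**Figure D2:**
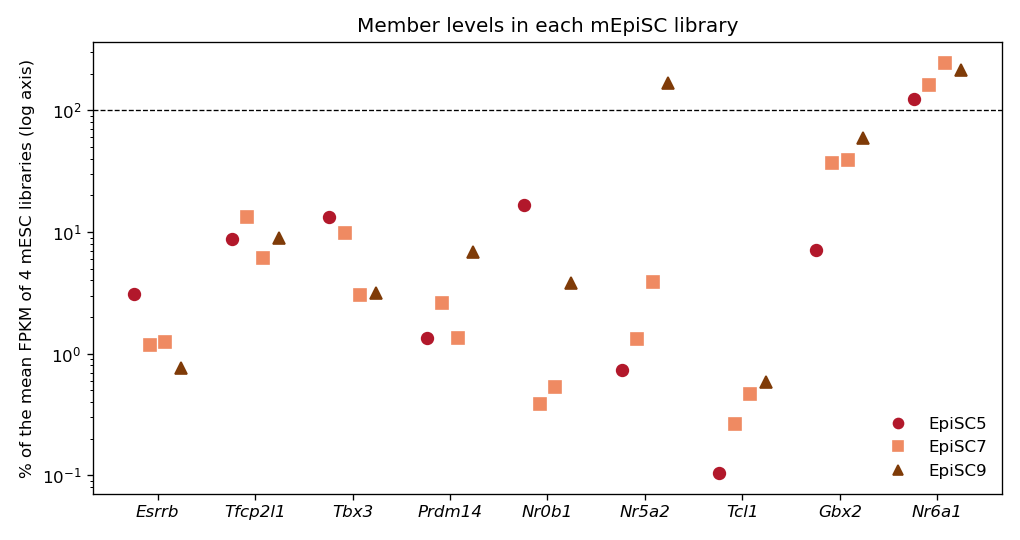
Level of each member in each mEpiSC library, as percent of the mean of the 4 mESC libraries, on a log axis, with 1 colour per line. Nr5a2 in EpiSC9 stands at 167% while the other lines are at 3.88% or less, and Nr0b1 runs from 0.387% in EpiSC7 to 16.7% in EpiSC5.

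Summed levels of markers of other cell types also differed between libraries, within lines as well as between them. Over the mEpiSC lines, 1 of the primitive endoderm markers and 0 of the fibroblast markers passed the F test. The 10 primitive endoderm markers summed to 133 FPKM in EpiSC5 and 28.9 to 49.4 FPKM in the other mEpiSC libraries. In mESC they summed to 9.33 to 13.9 FPKM. All 6 tested were higher in mEpiSC (3 to 6 with 1 library left out, 3 without mESC 3). Of the 4 not tested, Cubn and Amn were highest in mESC 4 (1.27 and 2.03 FPKM), while Gata4 and Sox7 were highest in mEpiSC libraries. The 15 fibroblast markers, a sign of feeder cells, summed to 519 FPKM in EpiSC5, 285 and 172 FPKM in EpiSC7 and 62.5 FPKM in EpiSC9, against 285, 39.0, 56.2 and 10.1 FPKM in mESC 1 to 4, and 4 of 14 tested were higher in mEpiSC. With 1 library left out 1 (without mESC 3) to 9 (without mESC 1) of the 14 were higher, and with the replicate block 13 were. The share of all genes tested that were higher in mEpiSC was 23.1%. By summed level, both lists were highest in EpiSC5. With the fibroblast marker level as a covariate, the log2 difference was −0.85 for Nr5a2 (adjusted p = 0.44) and 0.17 for Gbx2 (adjusted p = 0.78). That fit left the 6 lower members and Nr6a1 past the test.

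The 10 trophoblast markers, a lineage in which mouse Esrrb is also known to act, summed to 16.4 to 58.4 FPKM in mEpiSC and 25.2 to 32.5 FPKM in mESC. Of the 5 tested, Eomes was higher and Tfap2c lower in mEpiSC, and Cdx2, Elf5, Hand1 and Plac1 were under 1 FPKM in every library. The 10 neural and hindbrain markers summed to 24.1 to 44.6 FPKM in mEpiSC and 12.5 to 24.8 FPKM in mESC, with En1 and Nes of the 5 tested higher in mEpiSC. The 10 germ cell markers summed to 11.6 to 30.8 FPKM in mEpiSC and 91.0 to 117 FPKM in mESC, and 6 of 9 tested were lower in mEpiSC. For comparison, 23.1% of all genes tested were higher in mEpiSC and 14.2% lower. The part of these cell type markers in the members' differences was not tested.

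The 2 mESC lines were compared next. For 7 members both ESF175/1 libraries were above both ESF122 libraries, as in 18.5% of all genes tested, and for Nr6a1 both were below, as in 25.8% of all genes tested. Tfcp2l1 was the member whose lines overlapped. None of the 9 members passed the test (limma, adjusted p under 0.05), against 0.762% of all genes tested, while 7 had an unadjusted p under 0.05, against 14.9% of all genes. All 9 members share the same 4 libraries, 2 per line.

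By size, the mean of ESF175/1 over that of ESF122 was 4.24 for Gbx2, 2.40 for Prdm14, 2.24 for Tbx3, 2.13 for Nr5a2, 1.97 for Tcl1, 1.91 for Nr0b1, 1.73 for Esrrb, 1.30 for Tfcp2l1 and 0.763 for Nr6a1. The lowest adjusted p was that of Tcl1 (log2 0.92, limma adjusted p = 0.075), followed by Nr5a2 (log2 0.98, adjusted p = 0.12). The Gbx2 ratio rests on mESC 4, as its log2 difference was 1.61 with all libraries and 0.73 without that library. Without mESC 4 no member passed. The log2 difference of Prdm14 was then 0.55, against 0.89 with all libraries, and that of Tfcp2l1 was 0.61, against 0.32. Esrrb, Tbx3, Nr0b1, Nr5a2 and Tcl1 lay between 0.78 and 1.03 without it and between 0.79 and 0.98 with it. Without mESC 3, Tcl1 (adjusted p = 0.031), Prdm14 (0.017) and Gbx2 (0.0064) passed. In that fit ESF175/1 is mESC 4 alone, a library that the second component set apart, and it is assumed to vary like the other lines. Tcl1 also passed with a pseudocount of 5 (0.028). The ESF175/1 libraries had fibroblast sums of 56.2 and 10.1 FPKM and the ESF122 libraries 285 and 39.0 FPKM. The naive markers summed to 399 and 344 FPKM in mESC 3 and 4 (ESF175/1), against 259 and 231 FPKM in mESC 1 and 2 (ESF122). The primed markers summed to 26.3 and 26.8 FPKM in mESC 3 and 4, against 49.7 and 104 FPKM in mESC 1 and 2. The part of these differences in the members' line pattern was not tested.

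**Figure D3:**
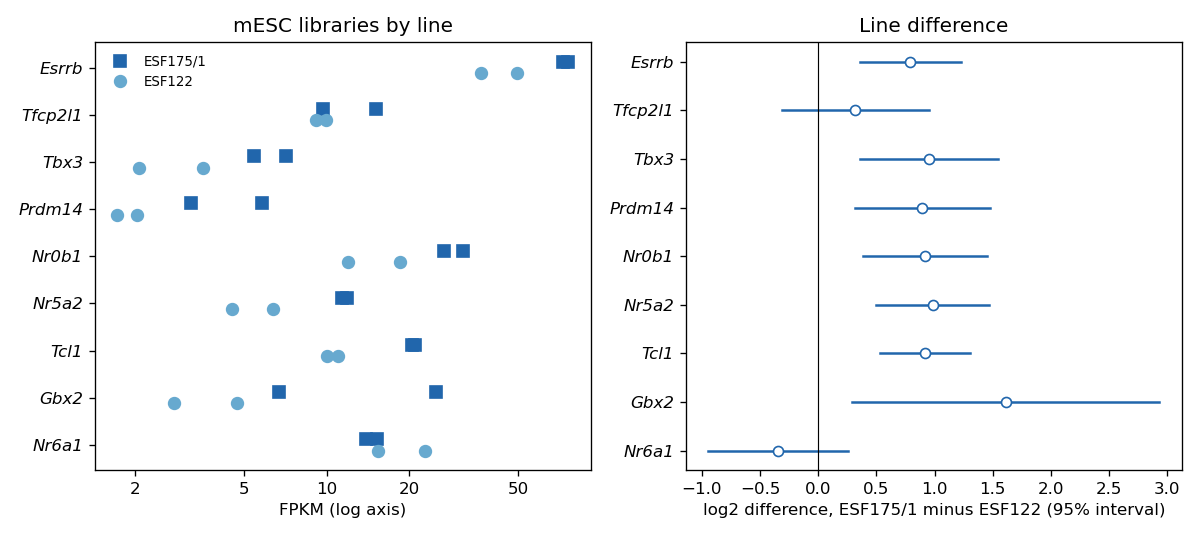
Left, FPKM of the members in the ESF175/1 and ESF122 libraries on a log axis; right, the log2 difference of ESF175/1 minus ESF122 with its 95% interval. Both ESF175/1 points lie above both ESF122 points for 7 members, and every marker on the right is open because no member passed the test.

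The relatives of the members are given by family, beside the 23.1% of all genes tested that were higher and the 14.2% that were lower. The other nuclear receptors number 45 in the tables, of which 18 were tested. Of these, 5 were higher in mEpiSC, with Nr2f1 (log2 1.54), Nr4a1 (1.20), Rxra (1.03) and Thra (0.61) first, and 1, the retinoic acid receptor gene Rarg, was lower. Their median log2 difference was 0.25, and 21 of the 45 were under 1 FPKM in every library. Over 20 other settings, 3 to 11 were higher and 1 to 3 lower.

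Rarg averaged 14.8 ± 1.53 FPKM in mEpiSC and 45.7 ± 11.8 FPKM in mESC (log2 −1.52, limma adjusted p = 7.2e-04). The closest paralog of Esrrb that was tested, Esrra, averaged 8.08 ± 1.00 FPKM in mEpiSC and 9.01 ± 1.05 FPKM in mESC and did not pass (log2 −0.14, limma adjusted p = 0.43). Esrrg, Nr5a1 and Nr0b2, the paralogs of Esrrb, Nr5a2 and Nr0b1, were under 1 FPKM in every library. Of these 4 paralogs, Esrra was thus the one expressed above 1 FPKM.

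Of the 5 other Grainyhead and CP2 genes, the relatives of Tfcp2l1, 3 were lower in mEpiSC: Grhl2 (log2 −1.89), Grhl3 (−1.83) and Grhl1 (−1.32), all regulators of epithelial genes. Grhl2 averaged 1.07 ± 0.618 FPKM in mEpiSC and 6.84 ± 2.56 FPKM in mESC. Tfcp2 was higher (log2 0.34, limma adjusted p = 0.041), a call not made in 13 of 20 other settings, and Ubp1 did not pass (log2 −0.46, adjusted p = 0.074).

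Of the 16 other T-box genes, 3 were tested, and Tbx2, the closest paralog of Tbx3, was at 0.449 FPKM or less in every library. Eomes (log2 2.32) and T (2.24), both drivers of the primitive streak, were higher in mEpiSC, and Mga (−0.58) was lower. T passed narrowly (limma adjusted p = 0.047), and its states overlapped, with mESC 2 at 38.8 FPKM against 20.9 to 46.8 FPKM in mEpiSC. In 15 of 20 other settings 1 of these 2 higher genes was left. Of 6 tested Prdm genes, 2 were lower, among them Prdm4 (−0.33), and 1 of the 2 was left in 7 of 20 other settings. Gbx1 was at 0.279 FPKM or less, and 4 of the 5 Tcl1b genes were listed at 0 in every library. Mtcp1, the remaining relative of Tcl1, did not pass the test (log2 0.33, limma adjusted p = 0.18).

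**Figure D4:**
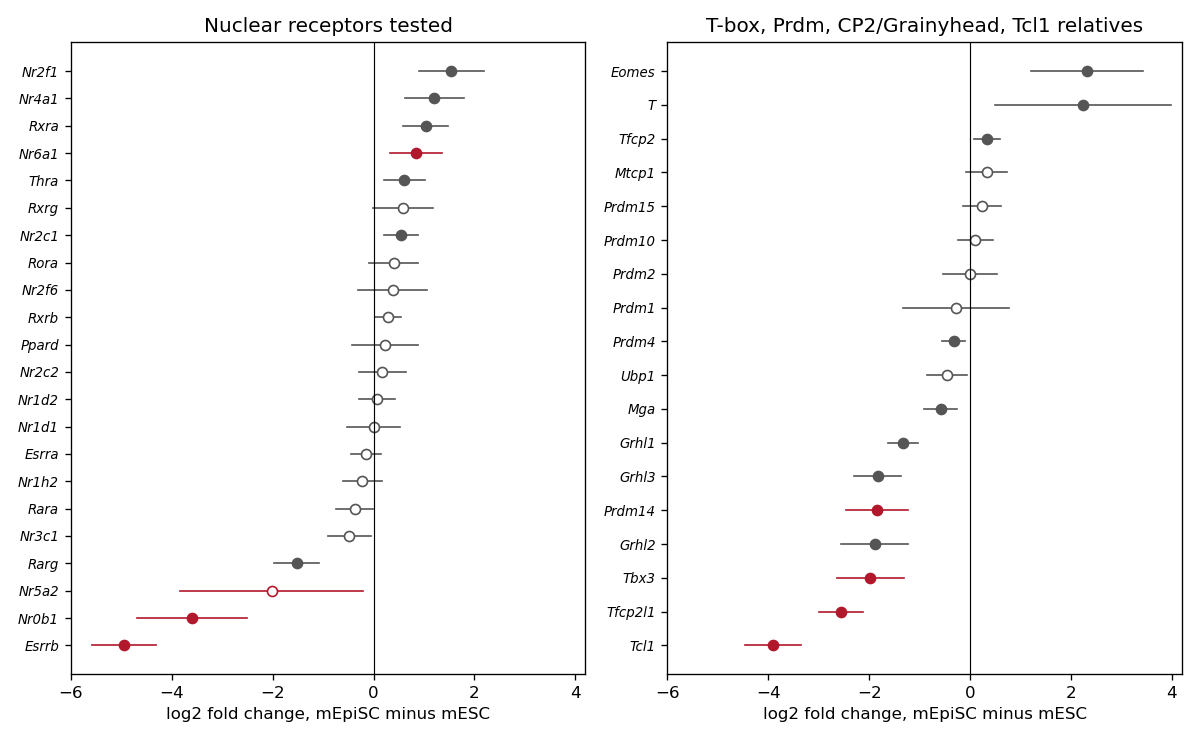
Log2 difference, mEpiSC minus mESC, with its 95% interval, grouped by gene family. Red marks the members, of which Gbx2 is not shown, and grey the tested relatives. Filled points have a limma adjusted p under 0.05. Of the filled grey points, Rarg (−1.52), the 3 Grhl genes, Mga (−0.58) and Prdm4 lie below 0 with the 6 lower members. Eomes (2.32) and T (2.24) lie far above, with a wide interval of 0.50 to 3.98 for T.

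Genes that act upstream and beside the members were described from a list each. Of 13 genes of the LIF and STAT3 pathway, 3 were higher in mEpiSC: Junb (log2 1.41), Jak2 (1.18) and Jak1 (0.49). Lower were 4: Klf4 (−2.15), Pim1 (−1.59), Lifr (−0.84), which codes for the LIF receptor, and Tyk2 (−0.47). Stat3 averaged 23.2 ± 2.07 FPKM in mEpiSC and 17.3 ± 3.78 FPKM in mESC and did not pass (log2 0.43, limma adjusted p = 0.078). Over 20 other settings, 2 to 4 of the 13 were higher and 1 to 5 lower. Among all genes tested 23.1% were higher and 14.2% lower, so the share of higher genes was that of all genes.

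Of 18 tested regulators and partners of the members, 3 were higher in mEpiSC, among them Akt1 (log2 1.14), the gene of a kinase that TCL1 assists, and Nr2c1 (0.54). Lower were Ncoa3 (−1.53), a coactivator of ESRRB, and the corepressor gene Tle4 (−0.80). Over the other settings 2 to 5 were higher and 2 to 6 lower. The shares of all genes tested were 23.1% higher and 14.2% lower, so neither count of the list was above that of all genes. Ncoa3 averaged 9.16 ± 1.32 FPKM in mEpiSC and 28.4 ± 4.59 FPKM in mESC. Tcf7l1, whose product represses Esrrb, averaged 39.7 ± 21.0 FPKM in mEpiSC and 25.2 ± 8.56 FPKM in mESC and did not pass (log2 0.45, limma adjusted p = 0.54).

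Of 7 genes described as PRDM14 targets or partners in mice, 4 were lower in mEpiSC: Dnmt3l, Tet1 (log2 −1.66), Tet2 (−1.56) and Dnmt3a (−0.60). Fgfr1, an FGF receptor gene, was higher (0.72), while Fgfr2 (0.56, limma adjusted p = 0.12) and Dnmt3b (−0.54, adjusted p = 0.33) did not pass. Over the other settings 0 to 2 of the 7 were higher and 3 to 5 lower. The shares of all genes tested were 23.1% higher and 14.2% lower. Dnmt3l averaged 0.824 ± 0.936 FPKM in mEpiSC and 113 ± 38.8 FPKM in mESC. The targets that PRDM14 is known to repress thus did not share a direction. Of 15 other naive factors, 14 were lower in mEpiSC, with a median log2 difference of −3.15 over the list. This list holds all 6 naive markers by which the states were checked, so it is not separate from that check. Some of its genes, among them Dppa3, Tdh and Zfp42, met the filter through the mESC libraries alone. For these a lower level was built in.

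Which genes ran most like each member was asked by Pearson's r of log2(FPKM + 1) over the 8 libraries, which share the 2 states and so give high values to any gene that parts them, among the 7615 tested genes that averaged at least 5 FPKM, had a status of OK throughout and were neither predicted genes nor small RNAs by symbol. The values are a description. The most alike of these were Triml2 for Esrrb (r = 0.996), Zswim1 for Tfcp2l1 (0.992), Pcolce2 for Tbx3 (0.994) and Slc10a7 for Prdm14 (0.995). They were Mreg for Nr0b1 (0.996), Slc19a2 for Nr5a2 (0.977), Triml1 for Tcl1 (0.997), Zfp277 for Gbx2 (0.975) and Fam33a for Nr6a1 (0.981).

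Mreg, which codes for a protein of organelle transport, followed Nr0b1 also in the deviations from the state means (r = 0.974). It was at 12.7, 1.74, 2.13 and 4.06 FPKM in mEpiSC 1 to 4, against 43.5, 29.0, 52.6 and 48.8 FPKM in mESC 1 to 4, so that EpiSC5 led the mEpiSC as it did for Nr0b1. Slc19a2, a thiamine transporter gene, was at 11.996, 13.1, 10.8 and 31.0 FPKM in mEpiSC 1 to 4, against 25.2, 23.98, 28.6 and 28.3 FPKM in mESC 1 to 4. Its EpiSC9 library was above all mESC libraries, as for Nr5a2. Among the 6 lower members r ran from 0.908 to 0.990 over 15 pairs. They were grouped because all were lower in mEpiSC, so a high r over the 2 states was built in. In the deviations from the state means, r among them ran from 0.149 (Tfcp2l1 and Prdm14) to 0.883 (Prdm14 and Tcl1).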

How the data were processed

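The deposited tables hold FPKM for each gene in each library, its 95% bounds and a quality status. Per the submitters' processing notes, TopHat2 2.0.6 and Cufflinks 2.0.2 were used with mm9; no annotation, option or strand setting is given in the sources used here. FPKM are not counts, so the deposited FPKM were tested as log2(FPKM + 1) with limma 3.58.1 (trend and robust, R 4.3.3). The 11556 genes reaching 1 FPKM in 4 or more libraries entered, from the 22987 symbols at 1 locus, and p-values were Benjamini-Hochberg adjusted over all of them. States were compared without covariates, and lines in a fit with 1 mean per line (3 residual degrees of freedom). The procedure was tried on simulated data, with changes added to genes averaging above 4 on the log2 scale. Changes of log2 2 were recovered in 95% for the state and 73.5% for the mESC lines. For the mEpiSC lines, 38.5% were recovered at log2 2 and 92.5% at log2 4. Nr6a1 alone among the members averages above 4 (4.55), so recovery at the levels of the other members was not tested.

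The members and gene lists were chosen with earlier results of these data known. Named genes were the members, all cell type markers, up to 4 genes per list and direction that passed the test, closest paralogs and the 3 genes most alike each member. Some list genes are counted but not reported here. Xist and Ddx3y were chosen after their values were seen. Replicate numbers are shared by the states. Libraries of the same number deviated together from their state means (r = 0.22, 0.15, 0.18 and 0.51). Each is above 0.1, so the numbers count as pairs by that bound. The bound does not single out equal numbers, since mEpiSC 1 and mESC 2 (0.11) also passed it. The pairing comes from the data, not from a label, and is weak except for replicate 4. The mEpiSC 2 library correlated more with mESC 3 (0.21) than with mESC 2, and mEpiSC 3 more with mESC 2 (0.19) than with mESC 3. Other settings tried were pseudocounts of 0.1 and 5, other filters, scalings, blocks and covariates, and leaving out each library.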

Additional observations from a re-analysis of the deposited data

Results flagged for a closer look

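Each state of each member, 18 groups of 4 libraries, was searched for a library far from its group on the log2 scale, by Dixon's criterion, where chance marks about 1 group in 20. There were 2. The Nr5a2 level of mEpiSC 4, the EpiSC9 library, was 14.3 FPKM, and its gap to the next mEpiSC library was 0.915 of the group's range. The Tfcp2l1 level of mESC 3, an ESF175/1 library, was 15.1 FPKM, with a gap of 0.840 of the range. Both exceeded the 95% critical value for 4 values. The other ESF175/1 library was at 9.73 FPKM for Tfcp2l1, within the range of the remaining mESC, and EpiSC9 has no other library.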

How the results depend on the processing

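The 6 lower members kept their direction and call in 118 of 118 combinations of a member and 1 of 20 other settings (highest limma adjusted p 0.0079). The settings reuse the same libraries and are not independent of one another. For Tbx3, Prdm14 and Tcl1, which met the filter through the mESC libraries alone, a lower level was built in. Over all 9 members, 167 of 178 combinations of a member and a setting gave the same direction and call as reported. Genes called between states numbered 4305, and 2752 with a mean of at least 5 FPKM (which leaves out Tbx3 and Prdm14), 2842 with a random block for the line, 5205 with the replicate block and 3132 to 4789 with 1 library left out. Members lower numbered 6, 8 with the replicate block and 6 to 7 with 1 library left out. The member higher numbered 1, and 0 with a random block for the line or replicates 1 to 3 only, and 0 to 1 with 1 library left out. Gbx2 turned to 0.17 with the fibroblast marker covariate. The replicate block changed the call of no other member than Nr5a2 and Gbx2. Between the mESC lines 88 genes were called, and 16 to 1497 with 1 library left out. Over the mEpiSC lines 300 were called, 185 with a pseudocount of 0.1, 566 with a pseudocount of 5, 466 with no filter, 196 with median ratio scaling, and 52 to 2215 with 1 library left out. Median ratio scaling moved the median log2 difference of all genes by −0.13 and quantile normalization by −0.10, and the share of calls that were lower in mEpiSC was 38.1% as deposited, 52.3% and 50.3% in these fits. The causes were not tested. Low FPKM limits what can be said of Tcl1 and Prdm14 in mEpiSC, and 1 library each limits EpiSC5 and EpiSC9.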

Other observations

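Of 123 genes of the lists that were tested beside the members, 7 differed over the mEpiSC lines by the F test (limma adjusted p under 0.05), against 2.6% of all genes tested. EpiSC9 held more of Dnd1, a germ cell RNA-binding protein gene, and of Pim1, a STAT3 target. Dnd1 was at 0.348, 0.982, 1.16 and 16.4 FPKM in mEpiSC 1 to 4, against 6.27, 11.5, 8.06 and 8.06 FPKM in mESC 1 to 4 (adjusted p = 0.016). As for Nr5a2, the EpiSC9 library lay above all mESC libraries. Pim1 was at 6.19, 7.77, 10.4 and 30.5 FPKM in mEpiSC 1 to 4, against 33.1, 36.2, 30.7 and 45.4 FPKM in mESC 1 to 4 (adjusted p = 0.039), so that the replicate 4 libraries were the highest of both states. EpiSC9 held less of Tcf7l1, at 56.9, 43.8, 48.9 and 9.25 FPKM in mEpiSC 1 to 4, against 31.8, 29.2, 27.2 and 12.7 FPKM in mESC 1 to 4 (adjusted p = 0.049). The replicate 4 libraries were the lowest of both states. EpiSC9 has 1 library, so these values cannot be given without it.

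EpiSC5 held more of Gata6, a regulator of primitive endoderm, and of Prdm1, a regulator of germ cells. Gata6 was at 26.4, 2.71, 4.41 and 1.71 FPKM in mEpiSC 1 to 4, against 0.171, 0.551, 0.381 and 0.698 FPKM in mESC 1 to 4 (limma adjusted p = 0.017). Prdm1 was at 8.47, 1.74, 1.58 and 0.668 FPKM in mEpiSC 1 to 4, against 3.56, 2.41, 3.43 and 2.51 FPKM in mESC 1 to 4 (limma adjusted p = 0.025). Otx2 and Sall4 were the remaining genes that passed.

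By a rule set after the values were seen, genes were sought that 1 mEpiSC library held at or above the lowest mESC value while the other 3 were under 0.1 times that value. EpiSC9 had 1, Nr5a2 itself. EpiSC5 had 4, the Y-linked Ddx3y, Eif2s3y and Uty, and Pmaip1, and the EpiSC7 libraries had 0 each. Another 140 genes were under 0.1 times the lowest mESC value in all 4 mEpiSC libraries.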
